A study of Mus musculus with 13 samples.

Results

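Collecting duct principal cell nuclei were the 1325 nuclei that the deposited cluster annotation assigned to PC, out of 28316 nuclei in the whole mouse kidney single nucleus ATAC-seq (snATAC-seq) data set and 27652 in its 13 main clusters. snATAC-seq cuts accessible DNA in single nuclei with a transposase, so that each nucleus yields a list of open regions (peaks). Nuclei were profiled from 2 newborn kidney samples (P0), 1 sample from 3-week-old mice (P21) and 2 samples from 8-week-old mice (P56), which gave 394, 350, 103, 266 and 212 principal cell nuclei in that order. The P21 and P56 samples together were treated as adult, with n = 3 against n = 2 at P0. The sources used here give no genotype, treatment, strain or sex for the mice of the snATAC-seq samples, and the protocol for their nuclei describes the newborns as 1 day old. The study's methods name wild type mice and the C57BL/6 strain only for its single cell RNA-seq samples. Nothing in the labels says that samples came from separate animals, so p-values of the stage tests measure the spread between these samples, which may be technical. The tests that compare stage changes between clusters use a spread shared by all clusters.

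Principal cells are the main epithelial cell of the collecting duct. They insert the water channel Aqp2 into the apical membrane when vasopressin binds its receptor Avpr2, and water leaves through Aqp3 and Aqp4 on the other side. They also reabsorb sodium through the epithelial sodium channel, made of the Scnn1a, Scnn1b and Scnn1g subunits, under the control of aldosterone and its receptor Nr3c2, and secrete potassium through Kcnj1. The duct grows from the ureteric bud, whose tips branch under Ret signalling, and intercalated cells, the acid-base cells of the same duct, lie between principal cells.

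The share of principal cells among clustered nuclei was 6.66% and 6.53% in newborn kidneys, 3.17% in the P21 kidney, and 3.84% and 3.42% in P56 samples 1 and 2. The median principal cell nucleus had 6554.5 and 7369 open peaks in P0 samples 1 and 2, 4606 in the P21 sample, and 2839.5 and 6027.5 in P56 samples 1 and 2, so that P56 sample 1 was the shallowest. Summed open calls of principal cells ran from 543597 in the P21 sample to 2678332 in P0 sample 1. A barcode was found in more than 1 sample 477 times in the series, and 40 principal cell nuclei carried such a barcode. None of these barcodes was a principal cell in every sample that held it.

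The label was first described by its markers Aqp2 and Elf5, using gene activity. The study named its clusters from the accessibility of known marker genes in these nuclei, with Aqp2 and Fxyd4 for principal cells. A lead of Aqp2 or Fxyd4 is therefore no independent check of the label. Gene activity was the number of open calls in peaks over a gene body and 2 kb upstream, scaled per 1000000 open calls of the summed nuclei (CPM). Aqp2 activity was 23.5 and 28.5 in the newborn samples, 99.3 in the P21 sample, and 96.7 and 112 in the P56 samples, and was the highest of all 13 clusters in 5 of 5 samples. The connecting tubule, the next highest cluster by the mean of 5 samples, had an Aqp2 activity of 19.4, 20.1, 35.4, 40.2 and 38.1 in the same sample order. These clusters thus lay close together at P0 and apart in the adult samples. Within single samples another cluster could be higher than the connecting tubule. The smallest Aqp2 lead over the highest other cluster of a sample was 0.07 on the log2 scale. Activity of Elf5, an ETS family transcription factor of the collecting duct, was 114, 114, 162, 185 and 141 in principal cells. Elf5 led in the 3 adult samples, but at P0 the connecting tubule was higher, with 154 and 116. Comparisons of levels between principal cells and other clusters are descriptions without a test, because the clusters were cut from the same nuclei.

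Of the 10 principal cell markers, Aqp2 and Fxyd4, a regulator of the sodium pump, were highest in principal cells in every sample, 7 led in at least 1 sample but not all, and Scnn1g led in none. Fxyd4 activity was 22.4, 21.8, 46.0, 42.0 and 54.9, with no overlap with the connecting tubule, at 13.7, 16.4, 8.16, 12.1 and 5.44. The connecting tubule had the next highest mean, but not the next highest value in every sample. Scnn1g was higher in the connecting tubule, a segment that also carries the sodium channel, in all samples. At least 1 open call in a marker gene was found in 85.5%, 85.7%, 84.5%, 85.3% and 95.8% of principal cell nuclei. In PCT (proximal convoluted tubule) nuclei, which should lack these genes, the shares were 62.5%, 57.3%, 51.5%, 49.0% and 62.9%. Median depths in the same sample order were 7128, 5420, 5227, 4206 and 7466 open peaks in PCT. In principal cells they were 6554.5, 7369, 4606, 2839.5 and 6027.5, so PCT was deeper in every sample but P0 sample 2. After every nucleus was thinned to 1000 open peaks, the shares were 35.7%, 31.5%, 40.8%, 56.6% and 58.0% in principal cells and between 13.4% and 16.5% in PCT. Nuclei under 1000 open peaks were left out, which removed 5, 7, 5, 10 and 0 principal cell nuclei and 37, 19, 40, 54 and 7 PCT nuclei. At that fixed depth the connecting tubule had 47.7% and 45.5% at P0, above principal cells, and 36.3%, 44.8% and 38.3% in the adult samples, below them. Summed activity of the 10 markers was 430 and 453 in principal cells at P0, below the 541 and 479 of the connecting tubule. In adult samples it was 625, 825 and 842, above the 476, 544 and 438 of the connecting tubule.

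**Figure D1:**
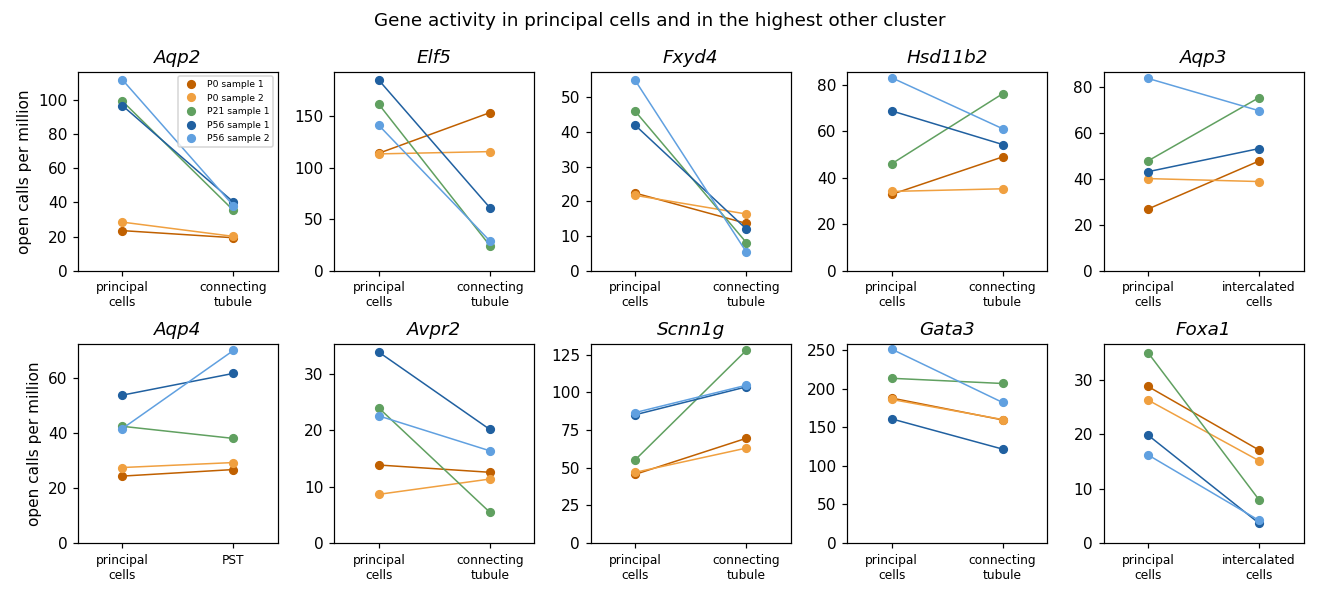
Gene activity (CPM, linear axes from 0) of 10 genes in principal cells and in the cluster with the next highest mean, each line joining the values of 1 sample. Aqp2 and Fxyd4 were higher in principal cells in all 5 samples, whereas Elf5 was higher at P0 in the connecting tubule, at 154 and 116, and Scnn1g was higher there in every sample.

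The sequences below are shown because they belong to marker gene loci and to 2 of the 15 leading peaks, defined further on, that are named here. Each is an exon-free stretch of at most 300 bases of an accessible peak on the plus strand of GRCm38 (mm10), given with its coordinates. Capitals mark matches, on either strand, to AACCNGTT (grainyhead type), AGGAAGT (ETS type), GCCNNNGGC (AP-2), TGANTCA (AP-1), AGATAA (bound by GATA factors) and TGTTTAC (forkhead). A match is a description of letters, not of a bound site. The first lies upstream of the Aqp2 start, the second inside a leading peak 7.9 kb downstream of it, the third beside the start of Fxyd4, the fourth in a leading peak in a Wnt9b intron, and the fifth in a leading peak at a start of Styk1.
Aqp2 start peak, chr15:99578755-99579054: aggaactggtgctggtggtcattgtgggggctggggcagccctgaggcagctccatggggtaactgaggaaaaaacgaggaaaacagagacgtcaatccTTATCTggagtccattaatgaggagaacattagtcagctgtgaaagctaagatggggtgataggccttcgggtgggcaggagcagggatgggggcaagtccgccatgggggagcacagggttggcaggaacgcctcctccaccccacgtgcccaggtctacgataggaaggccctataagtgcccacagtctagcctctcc
Aqp2 downstream leading peak, chr15:99586832-99587131: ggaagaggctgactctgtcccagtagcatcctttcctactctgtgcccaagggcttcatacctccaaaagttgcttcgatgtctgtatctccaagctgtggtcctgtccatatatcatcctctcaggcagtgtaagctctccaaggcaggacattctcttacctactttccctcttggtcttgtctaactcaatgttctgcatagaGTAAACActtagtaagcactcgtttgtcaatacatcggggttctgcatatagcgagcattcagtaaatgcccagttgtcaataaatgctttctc
Fxyd4 start peak, chr6:117937693-117937992: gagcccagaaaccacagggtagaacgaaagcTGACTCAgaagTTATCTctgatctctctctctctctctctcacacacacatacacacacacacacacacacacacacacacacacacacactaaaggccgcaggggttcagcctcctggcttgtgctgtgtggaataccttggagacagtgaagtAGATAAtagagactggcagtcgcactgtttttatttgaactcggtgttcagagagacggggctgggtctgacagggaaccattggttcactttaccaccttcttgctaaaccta
Wnt9b intron leading peak, chr11:103739271-103739570: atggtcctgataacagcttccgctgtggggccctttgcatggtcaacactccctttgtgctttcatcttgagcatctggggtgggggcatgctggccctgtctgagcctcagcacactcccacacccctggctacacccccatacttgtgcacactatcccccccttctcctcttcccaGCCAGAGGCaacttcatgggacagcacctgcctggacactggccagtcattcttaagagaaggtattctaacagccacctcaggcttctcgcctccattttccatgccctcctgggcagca
Styk1 leading peak, chr6:131316491-131316790: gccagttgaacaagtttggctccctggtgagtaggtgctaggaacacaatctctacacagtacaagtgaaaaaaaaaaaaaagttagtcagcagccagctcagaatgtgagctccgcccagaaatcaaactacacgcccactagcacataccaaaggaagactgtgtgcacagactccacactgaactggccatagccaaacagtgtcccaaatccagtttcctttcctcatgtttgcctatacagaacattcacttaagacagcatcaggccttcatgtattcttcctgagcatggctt

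Peaks over the starts of 9 marker genes were open in means of 5.91% (Aqp4) to 31.7% (Aqp2) of principal cell nuclei. The peak over the Aqp2 start (chr15:99578527-99579477) was open in 11.2% and 14.6% of nuclei in the newborn samples, 46.6% in the P21 sample, and 27.4% and 58.5% in the P56 samples. All adult values lay above both P0 values, although P56 sample 1 had the lowest depth. The same peak was open in a mean of 11.1% of connecting tubule nuclei and 0.323% of PCT nuclei. The Fxyd4 start peak (chr6:117937299-117938192) was open in 15.2%, 16.6%, 24.3%, 13.5% and 36.8% of principal cell nuclei, and here P56 sample 1 overlapped the P0 samples. The start peak of Hsd11b2 (chr8:105518329-105519505), the enzyme that protects the mineralocorticoid receptor from glucocorticoids, was open in 17.5%, 22.9%, 20.4%, 17.3% and 45.8%, and its mean was close to that of the connecting tubule (24.8% against 23.8%). The Elf5 peak, which covers an annotated start inside the gene, stayed between 10.8% and 12.6% in all samples. Other start peaks were more open elsewhere, that of Aqp3 in intercalated cells (19.4% against 13.8% in principal cells, and 14.7% in PCT) and those of Scnn1g and Scnn1b in the connecting tubule (31.3% against 24.2%, and 15.8% against 12.3%).

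Between P0 and adult, 40576 peaks passed the filter on low counts in principal cells; 12.7% of them were higher in adult and 16.7% were higher at P0 (edgeR quasi-likelihood test, Benjamini-Hochberg adjusted p under 0.05). Of the 9 markers with a peak over their start, 4 start peaks rose in adult and none fell. The Aqp2 start peak rose by a log2 fold change of 2.22 (SE 0.18, adjusted p = 8.1e-08), that of Fxyd4 by 1.08 (adjusted p = 0.00044), that of Hsd11b2 by 0.97 and that of Apela, a small secreted peptide hormone, by 0.78 (adjusted p = 0.031). The call held in 10 of 12 alternatives for Aqp2, 8 for Fxyd4, 7 for Hsd11b2 and 3 for Apela. The shares of Fxyd4 and Hsd11b2 overlapped between stages, and those of Apela did too, at 10.4% and 12.9% against 8.74%, 12.4% and 18.9%. The start peaks of Elf5 (0.53, adjusted p = 0.18), Aqp3 (0.63), Aqp4 (0.89), Scnn1b (0.27) and Scnn1g (0.43) did not pass. Counts of called peaks depended on single libraries. The 11949 peaks called in all fell to 2574 without P0 sample 1, 2844 without P0 sample 2 and 7314 without P56 sample 2.

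Within 60 kb of the Aqp2 start lay 34 peaks, of which 8 were open often enough to be tested and 6 rose, the start peak among them. A peak 5.2 kb upstream, open in 13.3% of principal cell nuclei, rose by a log2 fold change of 1.38, and a peak 6.0 kb downstream, open in 9.01%, rose by 2.05. The peak 7.9 kb downstream (chr15:99586575-99587388), whose nearest gene is the neighbouring water channel gene Aqp5, was open in 7.11% and 7.71% of nuclei at P0 and 36.9%, 14.3% and 30.7% in the adult samples. It rose by a log2 fold change of 2.22 (SE 0.26, adjusted p = 2.7e-06) and was open in a mean of 4.75% of connecting tubule nuclei. The other risers lay 17.5 kb upstream (2.15) and 5.0 kb downstream (1.03). The peaks 11.8 kb and 17.5 kb downstream had log2 fold changes of 0.17 and -0.03 and did not pass the test.

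**Figure D2:**
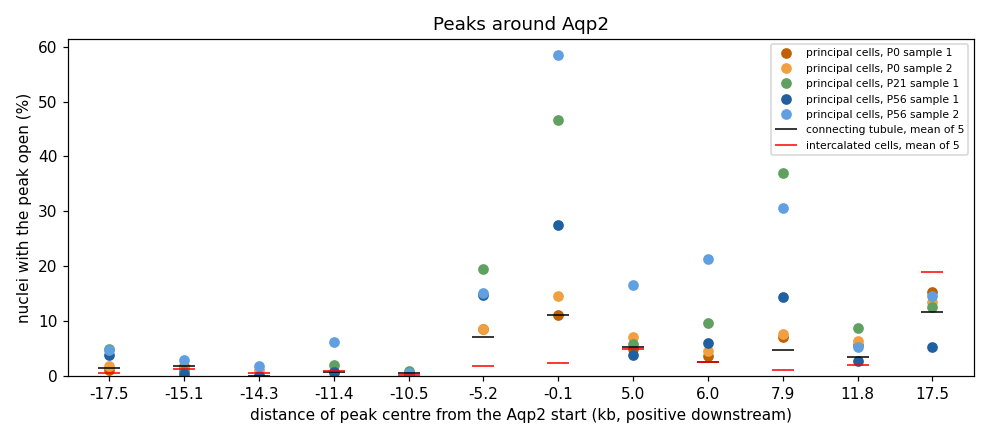
Share of principal cell nuclei (%) with each peak open around Aqp2, by distance of the peak centre from the start (kb, not to scale along the axis), for each of 5 samples, with means of connecting tubule and intercalated cells as dashes. At the start peak the adult samples reach 27.4% to 58.5% and the P0 samples 11.2% and 14.6%, and the peak 7.9 kb downstream shows the same order.

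The Elf5 window held 29 peaks. Of 7 peaks tested there, 3 rose. A peak 0.41 kb from the gene start was open in 6.60% and 6.57% of principal cell nuclei at P0 and 16.5%, 5.64% and 12.3% in the P21 sample and P56 samples 1 and 2, and rose by a log2 fold change of 1.11 (adjusted p = 0.013). A peak 54.9 kb downstream, open in 2.21% of principal cell and 20.04% of PCT nuclei, rose by 3.72 (adjusted p = 0.023), with 3.88%, 0% and 6.60% in the adult samples. A peak 1.9 kb into Elf5 was open in 20.4% of principal cell nuclei against 10.7% in the connecting tubule and rose by a log2 fold change of 0.58 (adjusted p = 0.044), whereas a peak 25.1 kb downstream, open in 23.5% against 17.7%, changed by 0.14 and did not pass. A peak 31.5 kb upstream of Elf5 was open in more intercalated cell nuclei (18.8%) than principal cell nuclei (6.24%). The Fxyd4 window held 18 peaks, and a peak 19.5 kb upstream was open in 26.6% of principal cell nuclei against 13.3% in the connecting tubule, with a log2 fold change of 0.46 (adjusted p = 0.059). Among 25 peaks around Gata3, a zinc finger factor needed for the ureteric bud, the peaks 10.3 kb and 11.2 kb downstream were open in 34.6% and 25.3% of principal cell nuclei and did not pass the stage test. The peaks that passed there lay 29.0 kb upstream, open in 26.5% and changed by 0.73 (adjusted p = 0.0055), and 16.3 kb upstream, open in 6.77% and changed by 1.09 (adjusted p = 0.029). Both lie nearest to a start of Taf3, and principal cells led at them in no sample. The first was open in 25.8% of connecting tubule and 26.8% of intercalated cell nuclei, and the second in 11.3% of connecting tubule nuclei.

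Leading peaks were the peaks open in at least 5% of principal cell nuclei whose CPM was at least 1.5-fold that of every other cluster in each of 5 samples, with a pseudocount of 1. They numbered 113, which was 0.424% of the 26635 peaks open in at least 5% of principal cell nuclei. Leading peaks were open in a median of 8.17% of principal cell nuclei and 2.11% of nuclei of the next cluster, and their means ran from 5.04% to 23.7%. The most open was a peak over an exon near Muc1, a mucin of epithelial surfaces (chr3:89233370-89234327). Just inside the threshold a peak led by 1.51-fold and just outside one led by 1.497-fold. By the mean of 5 samples, the next highest cluster was the connecting tubule for 73 of the 113 (64.6%), intercalated cells for 18, nephron progenitors for 7 and loop of Henle for 4. The number of leading peaks was 31 in nuclei thinned to 1000 open peaks, 200 without P0 sample 1 and 213 without P21 sample 1.

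The 15 leading peaks with the largest smallest-sample lead lay nearest to Tex26, Zfp458, Gria1, Gm4858, Crisp3, Wnt9b, Irx6, Styk1, Tcf7l1, Gnao1, Aqp4, Gbp4, Nfat5, Ypel2 and Ank. The peak in an intron of Wnt9b (chr11:103739155-103739686), a signal from the duct to the nephron-forming mesenchyme, was open in 18.3%, 20.3%, 8.74%, 9.02% and 14.6% of principal cell nuclei and in a mean of 2.93% in the connecting tubule. The peak at a start of Styk1 (chr6:131316302-131316978), a kinase-like membrane protein, was open in 13.5%, 18.3%, 13.6%, 9.77% and 11.8%, against 2.55% in intercalated cells. A peak nearest to Nfat5 (chr8:107248470-107249018), the transcription factor of the response to high salt and urea, was open in 11.9%, 15.4%, 5.83%, 6.02% and 8.96%. Bmp3, Clint1, Fam110b, Mgat4c, Styk1, Tcf7l1 and Zfp458 were each nearest to 2 leading peaks.

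In position leading peaks were closer to all peaks of the series than to the other peaks open in principal cells. An annotated start was covered by 5 of them (4.42%), against 45.6% of the 26635 peaks open in principal cells and 6.28% of all 300755 peaks. Their median distance to a start was 23590 bp, against 1308 bp and 20562 bp in the same sets. Distal sites held 36.3%, introns 37.2%, exons 19.5% and promoters within 5 kb upstream 7.08% of leading peaks. The peaks open in principal cells were 15.8% distal, 23.7% intronic and 56.2% exonic, and all peaks 31.6%, 46.7% and 16.8%. The median width of leading peaks was 610 bp, between the 915 bp of peaks open in principal cells and the 414 bp of all peaks. For 13 leading peaks the nearest start, within 100 kb, was that of a gene whose activity was highest in principal cells in every sample. The same count was not made over all open peaks, so it has no background here. Between P0 and adult, 17 leading peaks rose and 6 fell of 113, beside 12.7% and 16.7% of all peaks tested. Their median log2 fold change was 0.11, beside -0.0096 over all peaks tested. Leading peaks had to lead at both stages, so the rule itself limits which changes they can show. All peaks tested are therefore not a matched background.

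**Figure D3:**
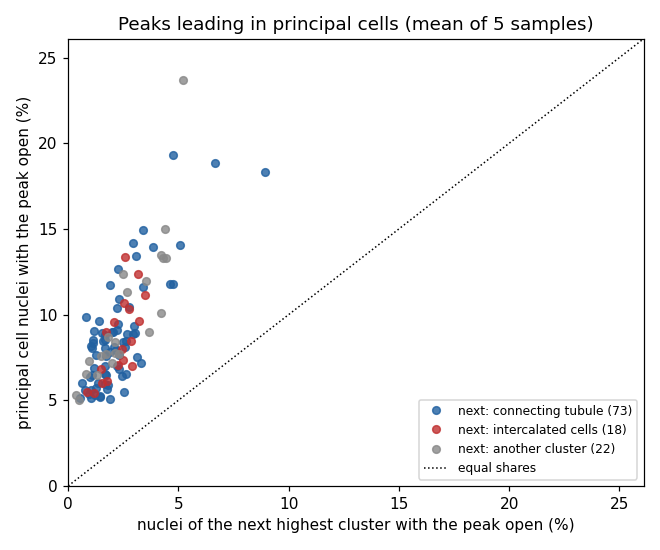
Mean share of nuclei (%, 5 samples) with each of the 113 leading peaks open, in principal cells (vertical) and in the next highest cluster (horizontal), coloured by that cluster. All points lie above the dotted line of equal shares because the selection requires it, and 73 have the connecting tubule as the next cluster.

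Motif shares in leading peaks lay above those of all peaks open in principal cells for some motifs and below them for others. In the central 300 bp, AGATAA, bound by GATA factors, was found in 24 of 113 leading peaks (21.2%), in 8.91% of all peaks open in principal cells, in 13.1% of those not over a start and in 15.3% of all peaks of the series. TGANTCA (AP-1) was found in 18 (15.9%, against 8.21%, 11.8% and 10.5% in the same sets), and AGGAAGT (ETS type) in 15 (13.3%, against 8.85%, 11.0% and 10.3%). GCCNNNGGC (AP-2) was found in only 4 (3.54%), against 21.8% of peaks open in principal cells, 14.1% of those not over a start and 8.97% of all peaks. The grainyhead type AACCNGTT was found in 6 (5.31%, against 3.08% of open peaks and 4.38% of those not over a start). The forkhead TGTTTAC was found in 3 (2.65%, against 3.23% and 4.29%). AAGGTCA, a nuclear receptor monomer site, was found in 5.31% against 4.84% and 6.63%. ACANNNTGT, of the steroid receptor type, was found in 6.19% against 5.60% and 8.01%. CAGCTG (E-box) was found in 12.4% against 19.8% and 22.4%. GTTAATNAT (HNF1), CAAAGTCCA (HNF4) and TGACGTCA (cAMP response element) were in none of the leading windows. They were in 1.45%, 0.413% and 1.36% of open peaks, and in 2.37%, 0.49% and 0.649% of those not over a start. These are descriptions of windows chosen by accessibility, with both strands searched, and no test was made.

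At gene level, 72 of 18209 genes with a peak (0.395%) had their highest activity in principal cells in every sample. The number was 13 in nuclei thinned to 1000 open peaks and 110 without P21 sample 1. Of the 72 genes, 56 reached at least 20 CPM. The 15 with the largest smallest-sample lead included Styk1, Tmem238l, Ndst4, Ano3, Foxa1, Sbspon, Tmprss7, Tmem210, Grm3, Fxyd4, Kcnh5, March11, Gstm2 and Ros1. Styk1 activity was 79.9, 78.0, 107, 97.9 and 82.3 in principal cells against a mean of 29.2 in the connecting tubule, and every adult sample lay above both P0 samples, although the stage change of 0.17 did not pass (adjusted p = 0.38). Foxa1, a forkhead factor of endodermal and duct epithelia, had 28.7, 26.3, 35.0, 19.8 and 16.2 against a mean of 9.58 in intercalated cells. Ano3, of the anoctamin family of ion channels and scramblases, had 38.5, 38.6, 40.5, 37.3 and 20.4 against a mean of 16.2 in intercalated cells. From the pathway lists, the genes that led in all 5 samples were Aqp2, Fxyd4, Ptger1, a prostaglandin E2 receptor, Gata3, Foxa1, Wnt9b and Krt19, a keratin of simple epithelia. For Ptger1 90.9% of open calls and for Gata3 68.0% lay in peaks that overlap another gene, so those values are shared.

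By mean correlation of whole profiles, principal cells lay nearest to the connecting tubule, loop of Henle and intercalated cells. The mean Pearson correlation over peaks within a sample was 0.765 with the connecting tubule, 0.731 with the loop of Henle and 0.695 with intercalated cells, and was lowest with immune cells at 0.579. The distal convoluted tubule and nephron progenitors both had 0.662 over peaks. Over genes the mean correlation was 0.942 with the loop of Henle and 0.938 with the connecting tubule. The connecting tubule shared 79.1% of the peaks open in principal cells, intercalated cells 75.9% and immune cells 42.5%. By this measure PST (proximal straight tubule, 72.7%) and nephron progenitors (72.5%) lay slightly above the loop of Henle (72.2%) and the distal convoluted tubule (70.6%). The order of correlations differed by sample, and over peaks the P21 sample lay nearer to the loop of Henle (0.695) than to the connecting tubule (0.648). P56 sample 2 lay nearest to intercalated cells (0.824, against 0.804 for the connecting tubule). These correlations are across features within libraries of unequal depth and are descriptions only.

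At gene level, nuclei labelled as principal cells differed widely between P0 and adult. Whether the label holds the same cells at both stages was not tested. Of 15692 genes tested, 12.6% were higher in adult and 18.1% were higher at P0, and the median log2 fold change over all genes was 0.007. Against that background, 9 of the 10 principal cell markers rose, none fell, and their median log2 fold change was 0.80. Aqp2 rose most, by 1.94 (SE 0.16, adjusted p = 2.2e-07), with all 3 adult samples above both P0 samples. Fxyd4 rose by 1.08 (SE 0.20, adjusted p = 0.00049) and Avpr2, the vasopressin receptor, by 1.16 (SE 0.30), from 13.8 and 8.63 at P0 to 23.9, 33.8 and 22.5, although 100% of its calls lay in peaks that also overlap another gene. Hsd11b2 activity was 32.9 and 34.1 at P0 and 46.0, 68.8 and 83.0 in adult samples, a rise of 1.01 (SE 0.19, adjusted p = 0.00069). Aqp3 rose by 0.85, Aqp4 by 0.75, Apela by 0.71, Scnn1g by 0.71 and Elf5 by 0.44 (SE 0.14, adjusted p = 0.025). Scnn1b had 87.4, 94.9, 51.5, 148 and 145, with the P21 sample below P0, and its change of 0.38 did not pass (adjusted p = 0.19). The Elf5 call was lost without either P0 sample, with DESeq2 and in thinned nuclei, whereas those of Aqp2 and Fxyd4 held in all 12 alternatives. Fxyd4 activity rested on 1 peak, its start peak, whose own call on the same counts held in 8 of 12 alternatives. Aqp2 activity rested on 2 peaks, its start peak among them. The 4809 genes called in all fell to 1172 without P0 sample 1, 1560 without P0 sample 2 and 2492 without P56 sample 2.

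Of 14 genes of the sodium channel and aldosterone response, 11 rose, none fell and 3 did not pass, with a median log2 fold change of 0.66. Sgk1, the aldosterone-induced kinase that keeps sodium channels at the membrane, had 79.2 and 76.1 at P0 and 219, 168 and 157 in adult samples, without overlap, and rose by 1.12 (SE 0.15, adjusted p = 2e-05). Scnn1a, the channel subunit needed for assembly, had 54.9, 52.9, 71.7, 131 and 130 and rose by 1.05 (SE 0.18, adjusted p = 0.00022). The sodium pump subunit gene Atp1b1 had 83.3 and 101 at P0 and between 171 and 173 in adult samples and rose by 0.84. Per1, a clock gene induced by aldosterone, rose by 0.83, Tsc22d3 (GILZ), a steroid-induced regulator of the channel, by 0.62, Nedd4l, the ligase that removes the channel, by 0.56, and the receptor gene Nr3c2 by 0.47. Scnn1b, Prss8 and St14, the latter pair being membrane proteases, did not pass, with log2 fold changes of 0.38, 0.33 and 0.32. The summed activity of the list was 1415, 1378, 2031, 2316 and 2404 in principal cells, and was higher in intercalated cells in every sample, at 2021, 1979, 2523, 2341 and 2576.

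Genes of water transport and vasopressin signalling moved in both directions. Of 19 tested among 20, 6 rose, 4 fell and 9 did not pass, with a median of 0.14. The risers were Aqp2, Aqp3, Aqp4, Avpr2, Adcy6 (0.50), an adenylyl cyclase downstream of the vasopressin receptor, and Nfat5, with 50.4 and 57.0 at P0 and 105, 100 and 91.5 in adult samples (0.80, SE 0.14, adjusted p = 0.00042), although its change was -0.011 in nuclei thinned to 1000 open peaks. Adcy3, another adenylyl cyclase, fell by 1.45 on the log2 scale, and the intracellular water channel Aqp11 fell by 0.91, from 45.9 and 51.8 at P0 to 33.1, 28.0 and 23.9. The urea transporter gene Slc14a2 had 193, 226, 212, 142 and 120, with the P21 sample at the P0 level, and fell by 0.54. Prkar2b, a regulatory subunit of protein kinase A, also fell by 0.54. Gnas, which encodes the stimulatory G protein, Ptger1, Ptger3, Ptger4, Ednrb, Edn1, Prkaca, Creb1 and Aqp1 did not pass, and Aqp6, a gene of intercalated cells, was too low to be tested.

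Among 7 potassium channel genes 2 rose, 1 fell and 4 did not pass, with a median of 0.08. Kcnj1 (ROMK), the secretory channel, had 49.3, 52.1, 57.0, 97.9 and 110, with the P21 sample close to P0, and rose by 0.83. Kcnj16, a basolateral channel subunit, had 47.8 and 54.0 at P0 and 97.5, 111 and 108 in adult samples and rose by 1.00 (SE 0.14, adjusted p = 4.2e-05). Kcnma1 (BK channel) fell by 0.74 on the log2 scale.

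Of 21 collecting duct transcription factor genes, 11 rose, 1 fell and 9 did not pass, with a median of 0.36. Gata2, which regulates water channel genes in the duct, had 69.4 and 71.3 at P0 and 142, 139 and 179 in adult samples and rose by 1.09 (SE 0.14, adjusted p = 2e-05). Tfcp2l1, a factor needed for both duct cell types, rose by 0.70 with 143, 149, 169, 300 and 255, Emx2 by 0.65, Elf3 by 0.64, and Pax2 by 0.61. Ehf, Pax8, Elf5, Hoxb7 and Esrrg rose by between 0.36 and 0.49, although the change of Hoxb7 was -0.0073 in thinned nuclei. Gata3, with 188, 186, 213, 161 and 251, did not pass (0.11). The single gene that fell was Sox9, a factor of ureteric bud tips, with 30.2 and 31.5 at P0 and 3.68, 12.8 and 7.04 in adult samples, a log2 fold change of -1.97 (SE 0.31, adjusted p = 0.00013).

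Of 14 genes of ureteric bud branching, 7 fell, 1 rose and 6 did not pass, with a median of -0.43. Activity of Ret, the receptor of the branching signal, was 61.2 and 49.1 at P0 and 16.6, 15.2 and 12 in adult samples, a log2 fold change of -2.05 (SE 0.24, adjusted p = 6.1e-06). Its co-receptor Gfra1 had 215, 216, 55.2, 73.4 and 53.5 (-1.90, SE 0.15, adjusted p = 1.3e-07), and Wnt11, a signal of bud tips, had 45.6, 47.6, 12.9, 18.7 and 14.1 (-1.67). In all 3 genes both P0 samples lay above every adult sample, and each call held in all 12 alternatives. Etv4 and Etv5, transcription factors downstream of Ret, changed by -1.17 and -0.59. Sox9 also fell, and Emx2 was the riser. Wnt9b (112, 127, 105, 150 and 148), Wnt7b, Wnt4, Sim1, Spry1 and Bmp7 did not pass.

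Junction and keratin genes were mixed, with 4 of 13 rising, 3 falling, 6 not passing and a median of -0.13. Cdh1 (E-cadherin) had 185 and 184 at P0 and 241, 267 and 314 in adult samples and rose by 0.53. Cdh16, a kidney cadherin, rose by 0.52, the keratin gene Krt7 by 0.62 and the claudin gene Cldn8 by 0.42. Ocln (occludin), Krt18 and Krt19 fell, with log2 fold changes of -0.40, -0.74 and -0.72. Of 7 cystic disease and cilia genes, 2 rose, among them Bicc1 (0.40), Ift88, an intraflagellar transport protein of cilium assembly, fell by 0.90 and 4 did not pass, among them Pkd1 and Pkd2, with a list median of 0.36.

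Of the 56 leading genes with at least 20 CPM, 8 rose and 8 fell, beside 12.6% and 18.1% of all genes tested, with a median log2 fold change of 0.09. These genes were chosen for a lead at both stages, so all genes tested are not a matched background. The leading genes that rose were Tmem238l (1.18), Tmem210, Fxyd4, BC030870, Faim2, Aqp2, Slc9a4 and Pde1c. Those that fell included Ndst4 (-1.26), Cnga1 (-1.10), Bcas1, Ros1, Grm3, Krt19 and Lipg. Ndst4, a heparan sulphate modifying enzyme, had 39.6 and 30.8 at P0 and 14.7, 18.7 and 13.4 in adult samples.

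**Figure D4:**
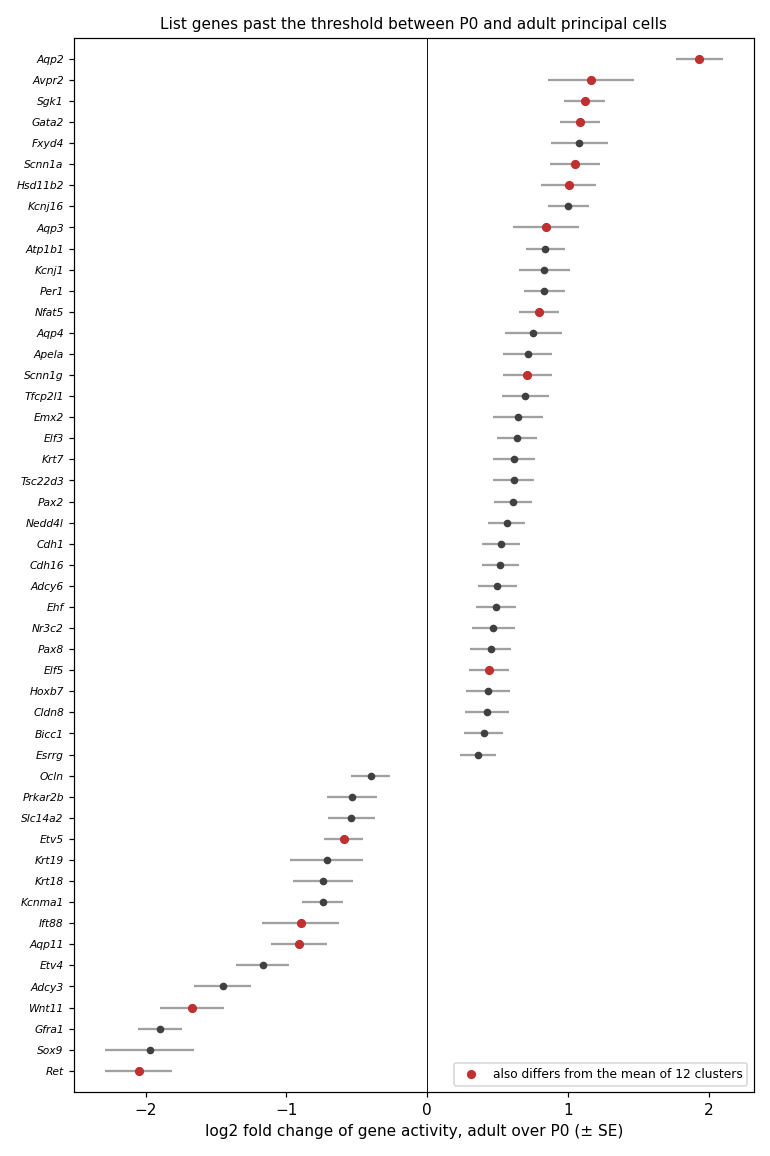
Log2 fold change of gene activity, adult over P0, with a standard error derived from the test statistic, for the reported genes of the principal cell pathway lists that passed the test, sorted by size. Aqp2 lies at 1.94 on the right and Ret at -2.05 on the left, and red points mark genes whose change also differed from the mean of the other 12 clusters.

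The largest changes lay outside these lists. Among the genes that passed with no overlap between stages, those that rose most were Gm5724 (3.77), Miox (3.39), Gcnt7 (3.16), Erich4, Dnase1, Slc5a12 (2.64), Omd, Spag8, Glyat and Car15 (2.32). Miox, an inositol oxygenase, Slc5a12, a lactate transporter, and Glyat, a conjugating enzyme, are known from the proximal tubule. Miox had 0.747 and 1.13 at P0 and 20.2, 2.33 and 12.7 in the P21 sample and P56 samples 1 and 2, so that P56 sample 1 lay close to P0. The calls of Miox, Erich4, Dnase1, Spag8 and Glyat held in 4 to 6 of 12 alternatives. These genes were too low to be tested without P21 sample 1, without P56 sample 2 and with P56 sample 1 as the only adult sample. Car15, a membrane carbonic anhydrase, had 4.85 and 7.50 at P0 and 22.1, 30.3 and 38.7 in adult samples (SE 0.32, adjusted p = 3.2e-05). All calls of Gcnt7, Omd and Car15 lay in peaks shared with another gene. In the other direction stood Oprk1, an opioid receptor gene, with 29 and 32 open calls at P0 and 0 in each adult sample, at least 10.7-fold lower against a floor of 3 counts over the group, and Olfr214, with 29 and 22 calls and then 0, at least 8.98-fold lower. Kcna5, a potassium channel gene, had 16.1 and 19.5 at P0 and 1.84, 0 and 0 in adult samples, and Cxcl14, a chemokine, had 22.0 and 22.9, then 1.84, 0 and 1.41. Crispld1 (-5.03), C530025M09Rik, Ly6h, Gm10406, AW551984 and Shc2 (-4.30) completed the 10, and fitted changes this large depend on the prior count of the model.

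The peaks with the largest stage change had no open call in the other stage. The peak chr11:84660928-84661521, 136 kb upstream of the start of Lhx1, a factor of early duct and nephron development, had 75 and 58 open calls at P0 and none in adult samples, at least 23.4-fold lower. The peaks chr15:6879087-6880257 near Osmr, chr1:139346508-139347375 near Crb1, chr4:106780180-106780600 near Acot11 and chr12:23009799-23010769, nearest to Gm10330, were at least 20.6-fold, 19.5-fold, 18.7-fold and 18.3-fold lower. In adult samples the peak chrX:50605208-50606034 had 7, 1 and 34 open calls and none at P0, at least 26.5-fold higher, and chrX:50607839-50608166 had 14, 1 and 15, at least 18.9-fold higher. Peaks near Ccz1 (chr5:143987589-143988118), 81.3 kb from the start of Vegfa (chr17:45939850-45940215) and at chr9:76806412-76806731 were at least 17.0-fold, 15.8-fold and 15.1-fold higher. All 5 peaks higher in adult were too low to be tested without P56 sample 2 and held the call in 4 to 6 of 12 alternatives. Each of the 5 higher at P0 held in 9. All of these bounds cover counting error only.

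Genes of other kidney cell types were followed in the same sums, because a cluster of single nuclei can hold their DNA. The 9 proximal tubule genes summed to 204 and 198 CPM at P0 and to 408, 153 and 349 in the P21 sample and P56 samples 1 and 2, against 1204 to 1839 in PCT itself. They were high in the P21 sample and P56 sample 2 and not in P56 sample 1. This order was not particular to principal cells. Intercalated cells had 198, 199, 319, 213 and 419 in the same sample order. The connecting tubule had 197, 237, 299, 148 and 147, high in the P21 sample only. Of 8 proximal tubule genes tested in principal cells, 3 rose and 1 fell (median 0.63). Hnf4a had 19.8, 18.4, 82.8, 19.8 and 78.8, Slc34a1 20.5, 19.5, 75.4, 19.8 and 60.5, and Slc5a12 2.24, 3.00, 22.1, 5.83 and 23.2. The part of proximal tubule genes in the stage results was not tested. With P56 sample 1 as the only adult sample, an arm chosen for its low sum and assumed to vary like the P0 samples, 3424 genes passed instead of 4809. With that sample alone none of 72532 peaks passed the edgeR test, although 17093 had an unadjusted p under 0.05.

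Several other lists were higher at P0. Endothelial genes summed to 261 and 271 at P0 and 202, 149 and 189 in adult samples, and 5 of 7 tested fell (median -0.79). Podocyte genes had 225, 242, 151, 113 and 155 (3 of 5 fell, median -0.84), nephron progenitor genes 118, 124, 69.9, 54.8 and 57.7 (3 of 5 fell, median -1.23), and stromal genes 107, 114, 77.3, 73.4 and 67.5 (1 of 5 fell, median -0.56). In all 4 lists the P0 sums lay above the adult sums, and none of these genes rose, beside 18.1% of all genes tested that were higher at P0. The sums of all 4 lists were also higher at P0 in the connecting tubule, intercalated cells and loop of Henle. Endothelial genes, for example, had 205, 201, 109, 93.5 and 93.7 in the connecting tubule. Immune genes had between 65.4 and 90.1 and 0 of 3 tested passed (median -0.10). Loop of Henle genes had 283, 265, 243, 195 and 281, with 2 rising, 3 falling and a median of 0.19. Intercalated cell genes had 309, 320, 294, 389 and 398, with 2 of 7 rising and 2 falling (median -0.22), and distal convoluted and connecting tubule genes 288, 270, 269, 308 and 322, with 1 of 6 rising (median -0.06). No list gene was at 0 in all samples, and the part of these sums in the stage results was not tested.

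**Figure D5:**
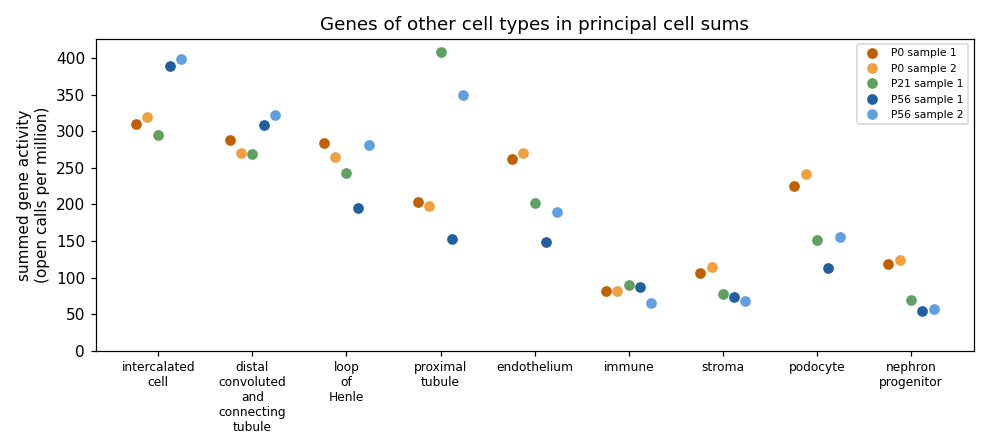
Summed gene activity (CPM, axis from 0) of marker genes of 9 other cell types within principal cell sums, 1 point per sample. Proximal tubule genes reached 408 in the P21 sample and 349 in P56 sample 2 and 153 in P56 sample 1, and endothelial, stromal, podocyte and nephron progenitor genes were higher in both P0 samples than in any adult sample.

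Whether principal cells changed differently from the other 12 clusters was tested as an interaction, with the sample as a block. It was the stage change in principal cells minus the mean stage change of the other 12 clusters. Each cluster had equal weight in that mean, and some were small. The distal convoluted tubule had 51 and 57 nuclei at P0, and podocytes had 39 in P56 sample 2. Nephron progenitors had 1032 and 1005 nuclei at P0 and 52, 90 and 53 in adult samples. Whether each label holds the same cells at both stages was not tested. The clusters were cut from the accessibility of these nuclei at both stages, which the p-values of this interaction and the next ones do not take into account. For each gene the spread was estimated over the sums of all clusters, not from principal cells alone. Of 17176 genes, 2.1% had a more positive and 2.67% a more negative change in principal cells. Of the 10 principal cell markers, 6 were more positive and none more negative, with a median difference of 1.06. The difference was 2.21 for Aqp2 (SE 0.29, adjusted p = 3.0e-07), 1.99 for Avpr2, 1.29 for Hsd11b2, 1.27 for Aqp3, 1.21 for Elf5 and 0.90 for Scnn1g. Of the water and vasopressin genes 5 were more positive and 1 more negative, of the sodium genes 4 and 1, and of the transcription factors 4 and 1, the latter led by Gata2 with 1.23. Prss8, a channel-activating protease, was more negative in principal cells (-0.82). Of the ureteric bud genes 5 were more negative, among them Ret (-1.21), Wnt11 (-0.87), Wnt9b (-0.86) and Etv5 (-0.71), and Wnt4 was more positive (1.25). For potassium channels (Kcnk1, -1.22), cystic genes (Ift88, -0.74) and podocyte and distal genes a single gene each was more negative, 3 loop of Henle genes were, and 1 intercalated gene went each way, while no junction, proximal tubule, endothelial, immune, stromal or nephron progenitor gene passed. The 819 genes called fell to 121 and 208 without P0 sample 1 or 2 and to 480 without P56 sample 2.

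Genes with the largest such differences were, on the positive side, the keratin gene Krt35 (2.97, SE 0.76, adjusted p = 0.0112), Fkbp6 (2.79), Majin, Cntnap5a and Cd28. Their counts were low, and Krt35 had 13 and 14 open calls in principal cells at P0 and 3, 4 and 5 in adult samples. On the negative side P2ry12 had 16 and 25 open calls in principal cells at P0 and 0 in each adult sample, at least 7.22-fold lower, and Lpar4, a lysophospholipid receptor gene, had 15 and 15 and then 0, at least 5.28-fold lower. Mia had 69 and 56 calls at P0 and 2, 3 and 1 in adult samples, and its difference was -4.56 (adjusted p = 3.5e-07). All calls of P2ry12 and Mia lay in peaks shared with another gene. Ptgds, a prostaglandin D synthase, had 27.6 and 27.8 CPM at P0 and 5.52, 8.16 and 6.33 in adult samples (-3.14, adjusted p = 9.35e-06), and Pi15 had -4.11. These calls held in between 2 (Lpar4, adjusted p = 0.046, lost with each sample left out) and 11 (Ptgds) of 11 alternatives.

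Against intercalated cells, the other cell type of the duct, 0.0175% of genes were more positive and 0.14% more negative in stage change in principal cells. Intercalated cells had only 40 and 56 nuclei in P0 samples 1 and 2, with 292968 and 463438 open calls. The small number of called genes therefore does not show that the cell types changed alike. From the pathway lists Sgk1 was more positive, by 1.18 (SE 0.24, adjusted p = 0.0123). In intercalated cells Sgk1 had 92.2, 142, 141, 105 and 116, with overlap between stages, whereas in principal cells the stages did not overlap. Ptges, a prostaglandin E synthase gene, had 73.2, 72.0, 92.0, 132 and 145 in principal cells and differed by 1.33, and Acss1 by 1.14 (adjusted p = 0.0323). The intercalated cell genes Slc26a4 (pendrin, -3.45, SE 0.51, adjusted p = 0.000145) and Kit (-2.38, SE 0.42, adjusted p = 0.00234) were more negative. Slc26a4 fell in principal cells from 47.0 and 36.4 to 12.9, 6.99 and 8.44, whereas in intercalated cells it had 41.0, 32.4, 69.4, 74.9 and 92.0. The values of the clusters were close at P0 and apart in adult samples. Those of intercalated cells at P0 came from only 12 and 15 open calls. Kit had 43.3, 49.1, 18.4, 8.16 and 9.85 in principal cells. Cldn9, a claudin gene, had 48.2, 45.4, 7.36, 5.83 and 4.93 (-2.96), and Scara3 and Togaram2 differed by -3.51 and -2.66. The calls of these genes held in between 3 (Acss1) and 8 (Sgk1 and Slc26a4) of 11 alternatives. The 27 genes called in all were 1 and 0 without P0 sample 1 or 2 (847 at an unadjusted p under 0.05 in the latter), 13 without P56 sample 1, and 45 without P21 sample 1 or without P56 sample 2.

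Against the connecting tubule, the nearest cluster over peaks by the mean of 5 samples, 1.88% of genes were more positive and 1.33% more negative. Of the markers 3 were more positive and none more negative. Elf5 differed by 2.21 (SE 0.24, adjusted p = 1.5e-08), with a rise in principal cells beside 154, 116, 24.5, 61.3 and 29.0 in the connecting tubule. Fxyd4 differed by 2.02 (SE 0.55, adjusted p = 0.023) and Aqp3 by 1.80, whereas Aqp2 differed by 1.03 and did not pass (adjusted p = 0.0956). Emx2 (1.25), Pax2 (1.09), Wnt4 (1.60), Wnt7b (1.44) and Krt19 (2.24) were also more positive in principal cells, and Etv4 (-1.72), Etv5 (-1.12) and Kcnj1 (-0.93) more negative. Of the distal convoluted and connecting tubule list 4 genes were more negative, namely Calb1, a calcium buffer (-2.17), the cotransporter gene Slc12a3 (-2.12), the sodium-calcium exchanger gene Slc8a1 (-1.86) and the magnesium channel gene Trpm6 (-1.86). The largest fitted differences were those of Btla, Olfr543, Grp, Spint4 and Krt35, which had no open call in adult connecting tubule, and of Klk1b11 and P2ry12, which had none in adult principal cells, so that these fitted values depend on the prior count. Perm1, Ackr2 and Il10 followed on the negative side, and Il10 had 16 and 14 open calls in principal cells at P0 and 1, 1 and 3 in adult samples. The calls of these genes with the largest differences held in between 3 (Btla and Ackr2) and 8 (Perm1 and Il10) of 11 alternatives. The 551 genes called fell to 53 and 121 without P0 sample 1 or 2 and to 248 without P56 sample 2.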

How the data were processed

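The authors generated snATAC-seq libraries and, per the labels, processed them with Cell Ranger ATAC 1.1.0, called peaks with MACS2 and used mm10 (GRCm38). The deposited matrix holds counts as binarized open calls, 0 or 1 per nucleus and peak, over 300755 peaks, and 89197 entries were stored as 0. The metadata rows, which give sample and cluster, were taken to be in matrix order, and PC nuclei were taken from them. The sources used here name no doublet removal, and no doublet caller was run, since the deposited annotation was used as given. The members and gene lists were chosen with earlier results of these data known. The bulk ATAC-seq and scRNA-seq files were not used here.

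Open calls were summed per sample and cluster, and gene activity was summed over peaks that overlap a gene body or 2 kb upstream. This was done for 21884 GENCODE M21 protein-coding genes, of which 18209 had a peak, after 54 entries with repeated symbols were left out. ATAC-seq carries no strand, so overlapping genes share calls. Summed calls per principal cell sample ranged from 543597 to 2678332, and intervals and floors of 3 counts cover counting error only. Stage effects were tested with edgeR 4.0.16 (quasi-likelihood test, TMM, filterByExpr with minimum count 10 and minimum total 15, Benjamini-Hochberg threshold 0.05) on 2 P0 and 3 adult sums. Interactions used all 65 sums with the sample as a block and a spread shared over the clusters. A positive log2 fold change is higher in adult. Alternatives used DESeq2 1.42.0, limma 3.58.1, other size factors, no filter, thinned nuclei, 103 nuclei per sample, the replicate number as a block and each sample left out, and P56 sample 1 as the only adult sample was added after seeing the data. A call counted as held only where the gene or peak was tested and passed in the same direction. Those too low to be tested in an alternative counted as not held. R 4.3.3, Python 3.11.15, numpy 2.4.6, pandas 2.3.3, scipy 1.17.1 and matplotlib 3.10.9 were used.

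Named were the genes of the lists, the 15 genes (at least 20 per 1000000 open calls) and 15 peaks with the largest smallest-sample lead (log2, pseudocount 1), the 10 genes and 5 peaks per direction with the largest stage change past the threshold and no overlap between stages, the 5 genes per direction with the largest interaction, and the marker start peaks, and a few of these are not reported here. Motifs were searched in the central 300 bp on both strands of the RefSeq GRCm38 sequence. Samples that share a number did not deviate together (correlation 0.03 over 40576 peaks), so numbers were not taken as pairs. In simulated stage data 4-fold changes were recovered at 76% of changed peaks and 98% of changed genes, and 2-fold changes at 30% and 85%. For the interaction with the mean of the other 12 clusters, over 17176 genes, the recovery was 99% and 60%. Only increases in adult principal cells were simulated there, with a dispersion set in advance and not estimated from the data. The comparisons with intercalated cells and connecting tubule were not simulated.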

Additional observations from a re-analysis of the deposited data

Results flagged for a closer look

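Groups had 2 or 3 samples, so no sample was tested as standing apart from its group. Named genes whose stage change in principal cells differed from that of other clusters by the interaction test are given as differences in log2 fold change, adult over P0, principal cells minus the other clusters.

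Against the mean of the other 12 clusters, principal cells changed more positively in some genes of the water and sodium lists, with 2.21 for Aqp2, 1.99 for Avpr2, 1.29 for Hsd11b2, 1.27 for Aqp3, 0.90 for Scnn1g, 0.89 for Sgk1, 0.75 for Ptger1 and 0.59 for Scnn1a. Most genes of these lists did not pass. The median difference was -0.05 over the water and vasopressin list, 0.11 over the sodium list and -0.03 over the potassium channels. Among regulators the difference was 1.25 for Wnt4, 1.23 for Gata2, 1.21 for Elf5, 0.68 for Gata3, 0.57 for Tfap2a and 0.48 for Nfat5. Outside the lists it was 2.97 for Krt35, 2.79 for Fkbp6, 2.58 for Majin, 2.54 for Cntnap5a and 2.31 for Cd28. The change was more negative in Kcnk1 (-1.22), Ret (-1.21), Tfap2b (-0.95), Wnt11 (-0.87), Wnt9b (-0.86), Prss8 (-0.82), Ift88 (-0.74), Aqp11 (-0.73) and Etv5 (-0.71). The largest negative differences were those of P2ry12 (-6.46), Lpar4 (-6.03), Mia (-4.56), Pi15 (-4.11) and Ptgds (-3.14), and the values of P2ry12 and Lpar4, which had no open call in adult principal cells, depend on the prior count.

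Against intercalated cells the difference was 1.33 for Ptges, 1.18 for Sgk1 and 1.14 for Acss1, and -3.51 for Scara3, -3.45 for Slc26a4, -2.96 for Cldn9, -2.66 for Togaram2 and -2.38 for Kit.

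Against the connecting tubule it was 2.24 for Krt19, 2.21 for Elf5, 2.02 for Fxyd4, 1.80 for Aqp3, 1.60 for Wnt4, 1.44 for Wnt7b, 1.25 for Emx2 and 1.09 for Pax2. It was -1.72 for Etv4, -1.12 for Etv5 and -0.93 for Kcnj1. Fitted differences of 7.42 for Btla, 7.38 for Olfr543, 7.11 for Grp, 6.76 for Spint4 and 6.75 for Krt35, none of which had an open call in adult connecting tubule, depend on the prior count, and so do those of Klk1b11 (-8.52) and P2ry12 (-6.71), with none in adult principal cells. Perm1 had -4.91, Ackr2 -4.39 and Il10 -3.85.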

How the results depend on the processing

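Counts of calls depended on depth, tool and single libraries, and the cause was not tested except where the alternative itself used fewer nuclei or samples. With nuclei thinned to 1000 open peaks, 13 leading genes, 31 leading peaks, 72 stage peaks, 619 stage genes and 26, 4 and 10 genes in the interactions with the mean of 12 clusters, intercalated cells and connecting tubule were left. DESeq2 called 6422 stage peaks and 1804 stage genes, and equal numbers of nuclei 2589 and 2531. Limma voom called 334 genes against the mean, 8 against intercalated cells and 521 against the connecting tubule. Without a filter 0 of 278469 peaks passed the edgeR test, with 36550 at an unadjusted p under 0.05. With P56 sample 1 as the only adult sample, chosen after seeing the data for its low proximal tubule sum and assumed to vary like the other samples, 0 stage peaks (17093 at an unadjusted p under 0.05), 762 genes against the mean, 167 against intercalated cells and 363 against the connecting tubule passed. Leading peaks numbered 180 at a minimum share of 2%, 34 at 2-fold and 58 with a pseudocount of 5.

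With each sample left out in turn, leading genes ranged from 82 to 110 (most without P21 sample 1) and leading peaks from 152 to 213 (200 without P0 sample 1, 213 without P21 sample 1). Stage peaks ranged from 2574 to 17753 and stage genes from 1172 to 6469, fewest without P0 sample 1, with 2844 and 1560 without P0 sample 2 and 7314 and 2492 without P56 sample 2. Interaction counts ranged from 121 to 896 against the mean of 12 clusters, from 0 to 45 against intercalated cells and from 53 to 631 against the connecting tubule.

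With the replicate number as a block, 9847 stage peaks and 3980 stage genes were called. With a replicate block in place of the sample block the interactions gave 471, 12 and 308 genes, and the samples share only a number.

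Over whole peaks, motif shares are given for leading peaks (median width 610 bp) and then for peaks open in principal cells (915 bp). They were 46.0% and 27.4% for GATA, 26.5% and 21.7% for AP-1, 22.1% and 23.7% for ETS type, and 13.3% and 44.8% for AP-2. They were 7.96% and 10.6% for forkhead, 4.42% and 3.53% for HNF1, and 12.4% and 15.8% for the nuclear receptor monomer site. E-box had 22.1% and 45.4%. The higher ETS type share of leading peaks in central windows was thus not seen over whole peaks. In the central 300 bp, none of the 34 peaks leading by 2-fold held the grainyhead type motif (0%, against 3.08% of peaks open in principal cells). 

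Directions reversed in few named genes. In thinned nuclei the stage change of Hoxb7 was -0.00731 and that of Nfat5 -0.0110, the difference of Nfat5 from the mean of 12 clusters was -0.11, and the differences of Cd28 and Sbspon from the connecting tubule were -0.19 and -0.66. With P56 sample 1 as the only adult sample, the stage change of Slc34a1 was -0.0196 and the difference of Tfap2b was 0.0342. Of the 111 named genes with a stage call, 66 kept it with DESeq2, 111 with other size factors and 102 with the replicate block. With equal numbers of nuclei 62 kept it and 30 lost it. In thinned nuclei 21 kept it, 40 lost it and 2 reversed. The remaining genes were too low to be tested in those 2 settings.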
